A study of Mus musculus with 30 samples.

Results

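The Hox genes encode homeodomain transcription factors that give cells their position along the head-to-tail axis. In mouse they lie in 4 clusters, HoxA to HoxD, and within a cluster the genes are ordered as they are used along the body, from the low-numbered anterior genes to the high-numbered posterior ones. In embryonic stem cells the clusters are known to be mostly silent and held by Polycomb proteins, and in differentiating neurons CTCF sites inside HoxA and HoxC are known to part active from silent genes. The genes described here are the 38 Hox genes of a fixed list, of 21851 protein-coding genes in the annotation. They comprise 10 genes each in HoxA and HoxB and 9 each in HoxC and HoxD. A cluster window ran from the first to the last listed gene on the chromosome plus 50 kb to either side.

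The series used ChIP-seq, in which DNA bound by a protein is pulled down and sequenced, in E14 mouse embryonic stem cells. All cells carried a CTCF fusion to an auxin-inducible degron (AID), which lets the auxin IAA trigger the destruction of CTCF, and all were grown without serum in LIF with the inhibitors PD0325901 and CHIR99021. Cells without IAA (0 h) were compared with cells given IAA for 12 h. CTCF and SMC1A, a subunit of the cohesin ring that extrudes chromatin loops, have 1 library per time from CTCF AID cells. The remodelers CHD4, CHD8, SMARCA4 and SMARCA5 have 2 libraries per time each, from degron cells that also carried the biotin-tagged form of that remodeler, so every remodeler comes from its own line. The labels do not say whether replicates came from separate cultures, so their spread may be technical. CTCF degradation is the condition of all comparisons, and no line without the degron was analysed here.

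The remodelers are ATPases that slide, evict or space nucleosomes. CHD4 is the motor of the NuRD complex, CHD8 is a CHD-family remodeler known to bind CTCF, SMARCA4 (BRG1) drives the BAF complexes, and SMARCA5 (SNF2H) drives ISWI complexes and is known to help CTCF bind in stem cells. The question put to the Hox clusters was where CTCF and cohesin sit in them, which of those peaks are still listed after CTCF is degraded, and whether the remodelers are listed at the same places.

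The lists held 29934 CTCF peaks at 0 h and 2248 at 12 h, 16724 and 10 SMC1A peaks, and between 40880 and 187294 peaks per remodeler library. The lists give no read depth and no expression, so the cell type was not checked against marker genes. A list pools many cells, so a missing peak cannot be told apart from fewer bound cells or from signal just under the authors' threshold. The CHD4 replicates stood apart in form, since the 2 replicate 1 lists had median peak widths of 433 and 475 bp and the 2 replicate 2 lists 119 and 94 bp. The peak names put the time first in 5 remodeler lists and the target first in the other 11. The time-first lists are CHD4 12 h replicate 1, SMARCA4 0 h replicate 2 and 12 h replicate 1, and SMARCA5 0 h replicate 2 and 12 h replicate 1.

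The Hox windows held 35 of the 29934 CTCF sites at 0 h. Each site is centred on the highest point of a CTCF peak listed at 0 h and reaches 100 bp in both directions, and sites are numbered in chromosome order within each window. HoxA (chr6:52162417-52260880) had 7, HoxB (chr11:96194316-96368256) had 14, HoxC (chr15:102921103-103036852) had 3 and HoxD (chr2:74668310-74765142) had 11, with coordinates on GRCm38 for the cluster body without its flanks. Of these sites, 26 lay between the first and last Hox gene and 9 in the flanks. Their fold enrichment, the authors' ratio of the peak to local background, ran from 3.66 to 53.8 with a median of 13, against 12.2 over all CTCF sites.

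After 12 h of IAA, 5 of the 35 sites (14.3%, exact 95% interval 4.81% to 30.3%) still overlapped a listed CTCF peak, against 7.44% of all CTCF sites, a share inside that interval. They were 2 in HoxA and 1 in each of the other clusters, and all lay inside the cluster bodies. The sequences of these 5 sites are shown because they carry the CTCF peaks that were still listed. Each is 29 bases of GRCm38 on the strand of the best CTCF motif match, with the 19 bases of the match in capitals.
HoxA-s2 (chr6:52204650-52204678, minus strand): cccagTCTCCAGCGGGTGGCGCTCgagtc
HoxA-s4 (chr6:52221800-52221828, minus strand): agaaaATTCCAGGAGATGGCAGTGtggct
HoxB-s5 (chr11:96235097-96235125, minus strand): tctcgCGGCCGGCAGGGGTCACTGtgtgg
HoxC-s1 (chr15:102966564-102966592, plus strand): cgaggCAGCTGCTAGGTGGCGCTGttact
HoxD-s10 (chr2:74702387-74702415, plus strand): gcattTGGCCACTAGAGAGCGCTGttgct
For comparison, the sites below are those among the 3 strongest of each window that had no 12 h peak, held a motif match and lay outside untranslated regions. No HoxA site met all of these.
HoxB-s7 (chr11:96261744-96261772, minus strand): gcgacCGACCTCTAGGCGGCGCCCtggcg
HoxB-s10 (chr11:96303237-96303265, plus strand): gtcaaTCGCCGGGAGGTGGCGCGCtctgc
HoxC-s2 (chr15:102987585-102987613, plus strand): acaagTGAACGCGAGGTGGCGCTGttgct
HoxC-s3 (chr15:103013694-103013722, plus strand): ccgagTCGGCACCAGGTGTCGCTGtgagc
HoxD-s2 (chr2:74655882-74655910, plus strand): ccgagCTACCGCTGGGGGGCGCCCcagcc
HoxD-s5 (chr2:74673169-74673197, minus strand): ccaaaCGCCCAGGAGATGGCGAGCgtgct
HoxD-s11 (chr2:74715913-74715941, plus strand): agcttTGTCCAGGAGGAGGCGCTGtagga

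The motif model was built from the 5000 CTCF sites with the highest −log10 q outside the Hox windows, searched on both strands, with the consensus NGGCCACNAGGGGGCGCNN. Its score threshold was set so that 5% of windows of the same length shifted by 100 kb matched. That 5% is therefore a setting and not a measured background rate. At this threshold the model matched 91.7% of all CTCF sites, which include the 5000 it was built from. In the Hox windows 29 of 35 sites matched (82.9%). The sites without a match were HoxA-s1, HoxA-s3, HoxA-s7, HoxB-s11, HoxD-s4 and HoxD-s7. The match scores of the 5 sites with a 12 h peak were 15.6, 12.8, 17.7, 11.4 and 17.2 in the order printed, all below 19.2, the median score of CTCF sites with a 12 h peak across the genome. The scores of the 7 printed sites without one were 15.8, 15.1, 14.3, 14, 15.4, 11.5 and 16.1, so the scores of both sets overlapped. The orientation of the matches relative to Hox transcription differed in count between clusters. In HoxC 3 of 3 ran along it and in HoxA 3 of 4, while in HoxB 4 ran along it and 9 against it, and in HoxD 5 ran along it and 4 against it.

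**Figure D1:**
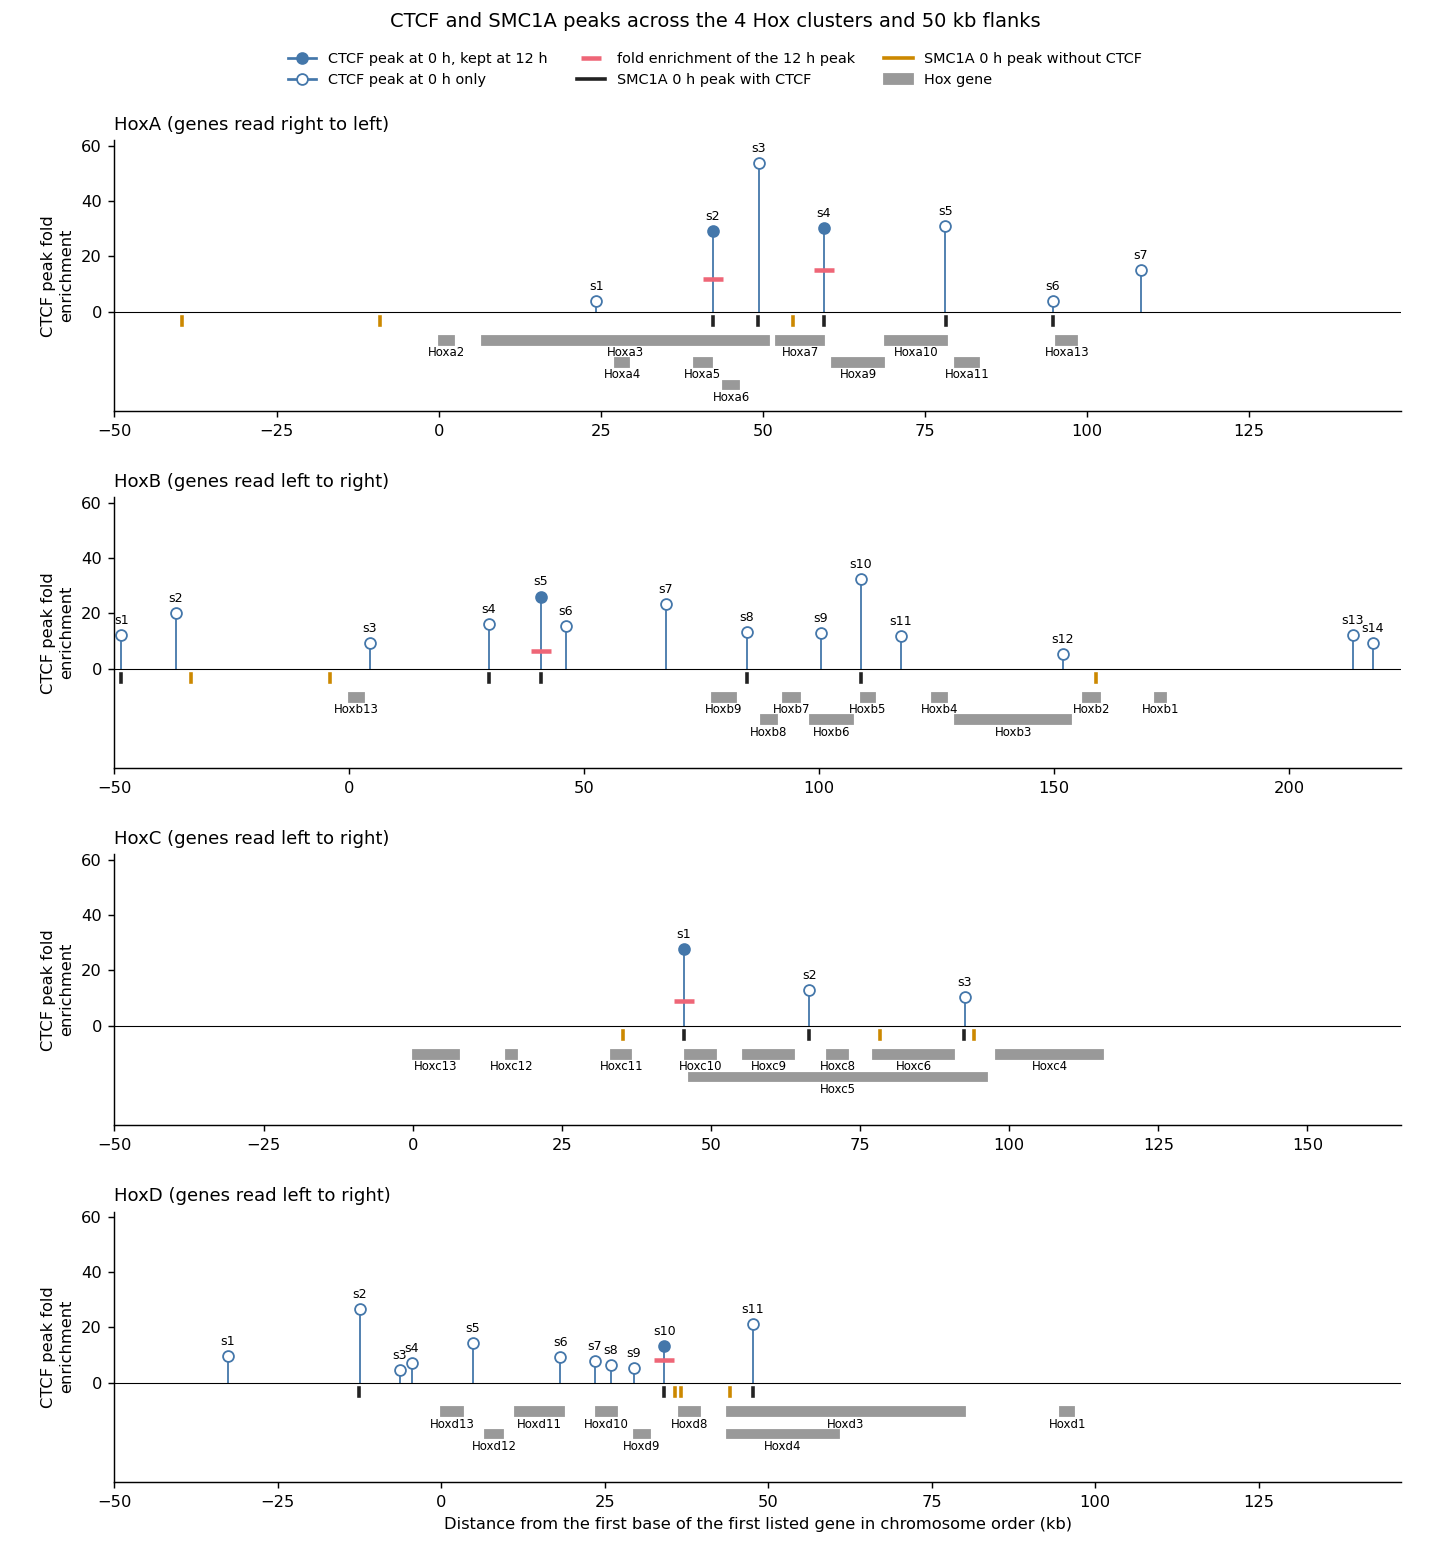
CTCF fold enrichment (y axis) along each cluster with 50 kb flanks (x axis, kb from the first base of the first listed gene); filled points are 0 h peaks that overlap a 12 h peak, open points 0 h peaks that do not, red bars the fold enrichment at 12 h, ticks the SMC1A peaks at 0 h, grey boxes the Hox genes. The 5 filled points lie inside the clusters, and the tallest point, HoxA-s3 at 53.8, is open.

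Of the 7 HoxA sites, 4 had fold enrichments of 29.1 to 53.8, and the others 3.66, 3.84 and 15.2. HoxA-s2 (chr6:52204446-52204867) lay 64 bp from the start site of Hoxa5, between Hoxa5 and Hoxa6, in an intron of the long Hoxa3 transcript. Its fold enrichment was 29.1 at 0 h and 11.7 at 12 h. HoxA-s4 (chr6:52221573-52222230), between Hoxa7 and Hoxa9, had 30.4 and 15.1. Between these sites stood HoxA-s3 (chr6:52211403-52211996), between Hoxa6 and Hoxa7, the strongest CTCF peak of all the Hox windows at 53.8 and at the 99.3 percentile of the 0 h list by −log10 p. HoxA-s3 had no 12 h peak, and its best motif score was 6.88, under the threshold of 8.45. HoxA-s5 (chr6:52240267-52240812), in an untranslated region of Hoxa10, likewise had 31.1 at 0 h and no 12 h peak. The order of 0 h fold enrichment was thus not the order of retention in HoxA.

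Strong sites without a 12 h peak were also present in the other clusters. HoxB-s10 (chr11:96303011-96303456), 259 bp from the start of Hoxb5, had the highest 0 h fold enrichment of its window at 32.4 and no 12 h peak. HoxB-s5 (chr11:96234871-96235383), in the gap between Hoxb13 and Hoxb9, had 26.1 and then 6.27. In HoxC the strongest site was the one kept, HoxC-s1 (chr15:102966370-102966754), 198 bp from the start of Hoxc10, with 27.9 and then 9.08. HoxC-s2 and HoxC-s3 had 12.8 and 10.3 at 0 h and no 12 h peak. In HoxD the kept site HoxD-s10 (chr2:74702180-74702589), between Hoxd9 and Hoxd8, was only at the 48.6 percentile, with 13.3 and then 8.18. HoxD-s2 (chr2:74655286-74656155), in a coding exon of Evx2, the even-skipped homologue beside Hoxd13, had 26.8 and no 12 h peak, and neither did HoxD-s11 at 21.1 or HoxD-s5 at 14.5.

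The median 0 h fold enrichment was 27.9 for the 5 sites with a 12 h peak and 12.2 for the 30 without, beside 27.7 and 11.5 over all CTCF sites. Among sites in the upper 50% of the 0 h list, 21.1% of 19 Hox sites had a 12 h peak, against 14.7% of all. With a reciprocal overlap of 50% the share of all 35 Hox sites was 8.57%, and that of all CTCF sites 2.80%. CTCF has 1 library per time, so no test was made, and the intervals cover counting error over sites only.

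Cohesin was read from SMC1A. At 0 h 16 of the 35 Hox CTCF sites held a SMC1A peak (45.7%, exact 95% interval 28.8% to 63.4%), against 45.8% of all CTCF sites. All 5 sites that later kept CTCF were among them, and 11 of the other 30. The kept sites also had the higher median CTCF fold enrichment at 0 h, 27.9 against 12.2. The SMC1A shares of kept and lost sites over the genome were not taken, so these counts describe the Hox sites only. At 12 h none of the 35 sites held a SMC1A peak (exact 95% interval up to 10%), against 0.0200% of all CTCF sites. The 5 sites where a CTCF peak was still listed had none either. The 12 h SMC1A list, from 1 library, held only 10 peaks in the whole genome, so hardly any site could hold one. The lack of SMC1A peaks is therefore not particular to the Hox sites. The highest SMC1A fold enrichments at these sites were 11.8 at HoxA-s3, 10.4 at HoxD-s11, 9.02 at HoxA-s4 and 8.63 at HoxB-s10. Strong CTCF sites without a SMC1A peak were HoxB-s7 at a CTCF fold enrichment of 23.4 and HoxB-s2 at 20.2.

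Counted from the SMC1A side, the windows held 28 SMC1A peaks at 0 h (8 in HoxA, 8 in HoxB, 6 in HoxC and 6 in HoxD). They held none of the 10 peaks listed at 12 h. Of the 28 peaks at 0 h, 16 overlapped a CTCF peak (57.1%, exact 95% interval 37.2% to 75.5%), and the genome-wide share was 81.7%, above that interval. When only CTCF and SMC1A peaks with −log10 q values of 5 or more were used, the shares were 68.4% of 19 Hox peaks and 92.5% of all. The 12 SMC1A peaks without CTCF had fold enrichments of 2.81 to 6.47 with a median of 4.43, and those with CTCF 4.11 to 11.8 with a median of 5.93. Of the 12, 8 were inside the clusters, and the nearest CTCF summit was at least 1462 bp away. They lay among other places in coding exons of Hoxa7 (chr6:52216993-52217379) and Hoxb2 (chr11:96353097-96353467), in introns of Hoxc11, Hoxc6 and Hoxc5, and in an untranslated region of Hoxd8 (chr2:74704917-74705290). Of these 12 peaks, 9 were also covered by remodeler peaks in at least 6 of the 8 remodeler libraries of 0 h. The genome-wide share for that count was not taken, but shares for single remodelers were. CHD8 covered 9 of the 12 in both 0 h libraries (75%), against 67.5% of SMC1A peaks without CTCF genome-wide, while CHD4 covered 66.7% against 80.0%. SMARCA4 covered 66.7% against 79.3%, and SMARCA5 58.3% against 50.3%.

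The remodelers were then compared at the 35 CTCF sites. CHD4 peaks were listed at 40% and 28.6% of the Hox sites at 0 h and at 20% and 11.4% at 12 h, means of 34.3% ± 8.08 and 15.7% ± 6.06 (SD, n = 2). CHD8 peaks were listed at 42.9% and 40% at 0 h and at 28.6% and 20% at 12 h, means of 41.4% ± 2.02 and 24.3% ± 6.06 (SD, n = 2). For both, each 12 h library was below each 0 h library. For SMARCA4 the libraries overlapped, with 51.4% and 34.3% at 0 h and 37.1% and 40% at 12 h. For SMARCA5 they overlapped as well, with 11.4% and 22.9% at 0 h and 34.3% and 17.1% at 12 h. The exact two-sided permutation test of 2 libraries against 2 cannot go below a p of 0.333, so for a single remodeler no test could pass.

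The same shares were taken over the 29899 other CTCF sites. CHD4 was at 41.3% and then 18.4% of the other sites, and all 4 CHD4 libraries were lower at Hox sites. CHD8 was at 23.9% and then 14.6% of the other sites, and all 4 CHD8 libraries were higher at Hox sites. SMARCA4 was at 26.5% and then 23.1%, and again all 4 libraries were higher at Hox sites. SMARCA5 was at 17.0% and then 12.1% of the other sites, against 17.1% ± 8.08 and 25.7% ± 12.1 (SD, n = 2) of the Hox sites. These levels come with the position of the sites, since 26 of the 35 lie in gene-dense cluster bodies, and the part of position was not tested. In the bodies CHD8 was at 48.1% and then 30.8% of the 26 sites, and in the flanks at 22.2% and then 5.56% of the 9.

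**Figure D2:**
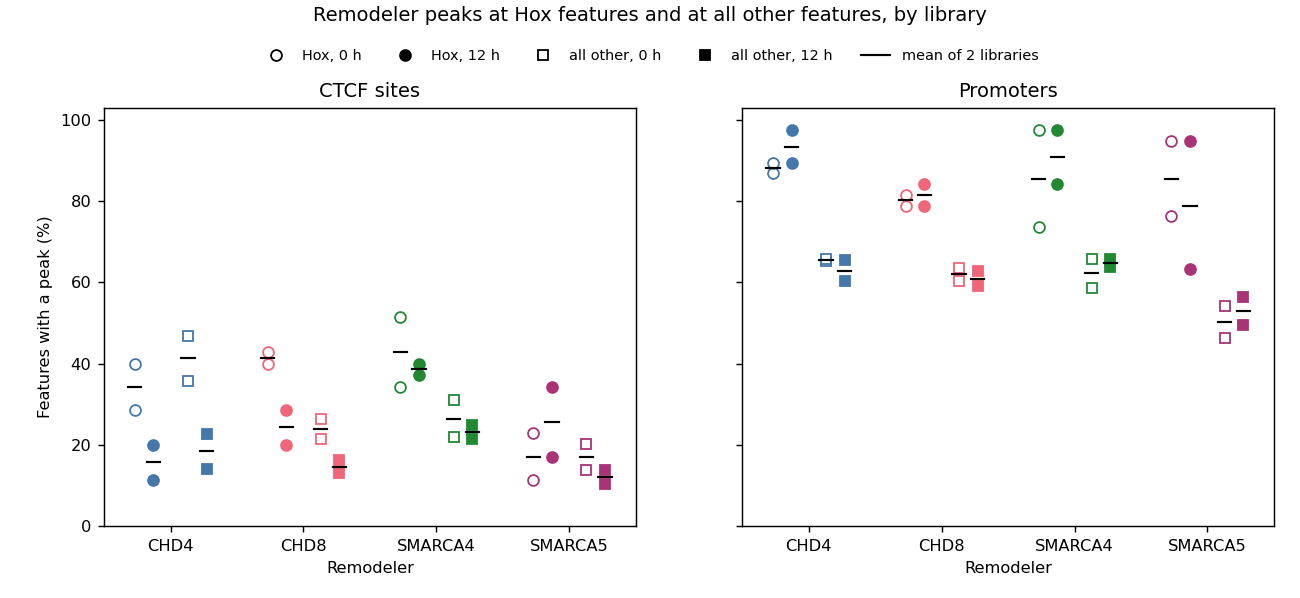
Share of features with a remodeler peak (y axis, %) for each remodeler (x axis) at CTCF sites (left) and promoters (right); circles are Hox features, squares all other features, open symbols 0 h libraries, filled symbols 12 h libraries, bars the mean of 2 libraries. At Hox CTCF sites the CHD4 and CHD8 libraries of 12 h lie below those of 0 h, and at Hox promoters the libraries of both times overlap or meet for every remodeler.

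Stricter settings moved the differences at CTCF sites either way. The CHD4 change of −18.6 percentage points was −10 when remodeler peaks needed a −log10 q of at least 5 and −11.4 when a peak summit had to lie in the site. The CHD8 change of −17.1 was −18.6 at the stricter q and −11.4 with summits. Leaving out single libraries gave −24.3 to −12.9 for CHD4 and −21.4 to −12.9 for CHD8. The direction for SMARCA4 turned, from −4.29 to +7.14 points with summits and to +4.29 without its 0 h replicate 1, while the stricter q gave −7.14. By naming style it was +2.86 in the time-first lists and −11.4 in the target-first lists. The SMARCA5 change of +8.57 points was 0 at the stricter q and without its 12 h replicate 1, and +10 with summits.

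By cluster, libraries of the 2 times did not overlap for CHD8 in HoxA or for CHD4 and CHD8 in HoxD. At the 7 HoxA sites CHD8 was at 57.1% in both 0 h libraries and at 42.9% in both 12 h libraries. CHD4 was at 45.5% and 27.3% of the 11 HoxD sites at 0 h and at 18.2% and 0% at 12 h. CHD8 was at 45.5% in both 0 h libraries and at 27.3% and 9.09% at 12 h. In HoxB, CHD4 was at 28.6% of 14 sites in both 0 h libraries and at 14.3% and 7.14% at 12 h, while SMARCA5 was at 0% and 7.14% and then at 28.6% and 14.3%. At a −log10 q of at least 5 the HoxB changes of −17.9 and +17.9 points became −3.57 and +3.57, and the HoxD changes of −27.3 became −13.6 for CHD4 and −18.2 for CHD8. With summits the HoxD changes were −9.09 for CHD4 and −13.6 for CHD8, and the HoxB changes −17.9 for CHD4 and +7.14 for SMARCA5. With 250 bp to either side of the summit CHD4 changed by −13.6 in HoxD and by −25.0 in HoxB, so the order of these clusters depended on the setting. In HoxC 1 of the 3 sites, HoxC-s1, had SMARCA5 in both 0 h libraries and in neither 12 h library, which is the whole of the SMARCA5 difference there.

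Site by site, remodeler peaks were unevenly spread. Of the 35 sites, 10 (28.6%) had no remodeler peak in any of the 16 libraries, against 38.7% of all CTCF sites. One site, HoxA-s2 beside Hoxa5, had peaks in all 16 libraries, against 2.32% of all sites. Counting libraries with a peak, 16 sites had fewer at 12 h than at 0 h (45.7%, against 46.0% of all sites), 3 had more (8.57%, against 6.47%) and 16 had equal numbers, 10 of these being the sites with no peak at all.

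The sites with a 12 h CTCF peak differed among themselves. HoxA-s2 had 8 of 8 libraries at each time, HoxA-s4 7 and 7, and HoxC-s1 8 and 6. HoxB-s5 had 2 and 2, and HoxD-s10 had 1 and 0. HoxA-s2 shows what a peak present throughout looks like. Its CHD4 fold enrichments were 10.1 and 7.13 at 0 h and 4.87 and 6.16 at 12 h, and its SMARCA4 values were 10 and 7.02 and then 3.62 and 4.27. Both 12 h values were below both 0 h values in each of these 2 remodelers, as in CHD8 (6.75 and 5.95, then 5.10 and 4.68) and SMARCA5 (7.18 and 6.83, then 5.34 and 2.87). Fold enrichments of separate lists are the authors' own and are not normalised to each other, so they are given as a description. The strong sites HoxB-s10 and HoxB-s7 had few remodeler peaks, with 3 and 0 libraries at the first and 2 and 2 at the second.

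**Figure D3:**
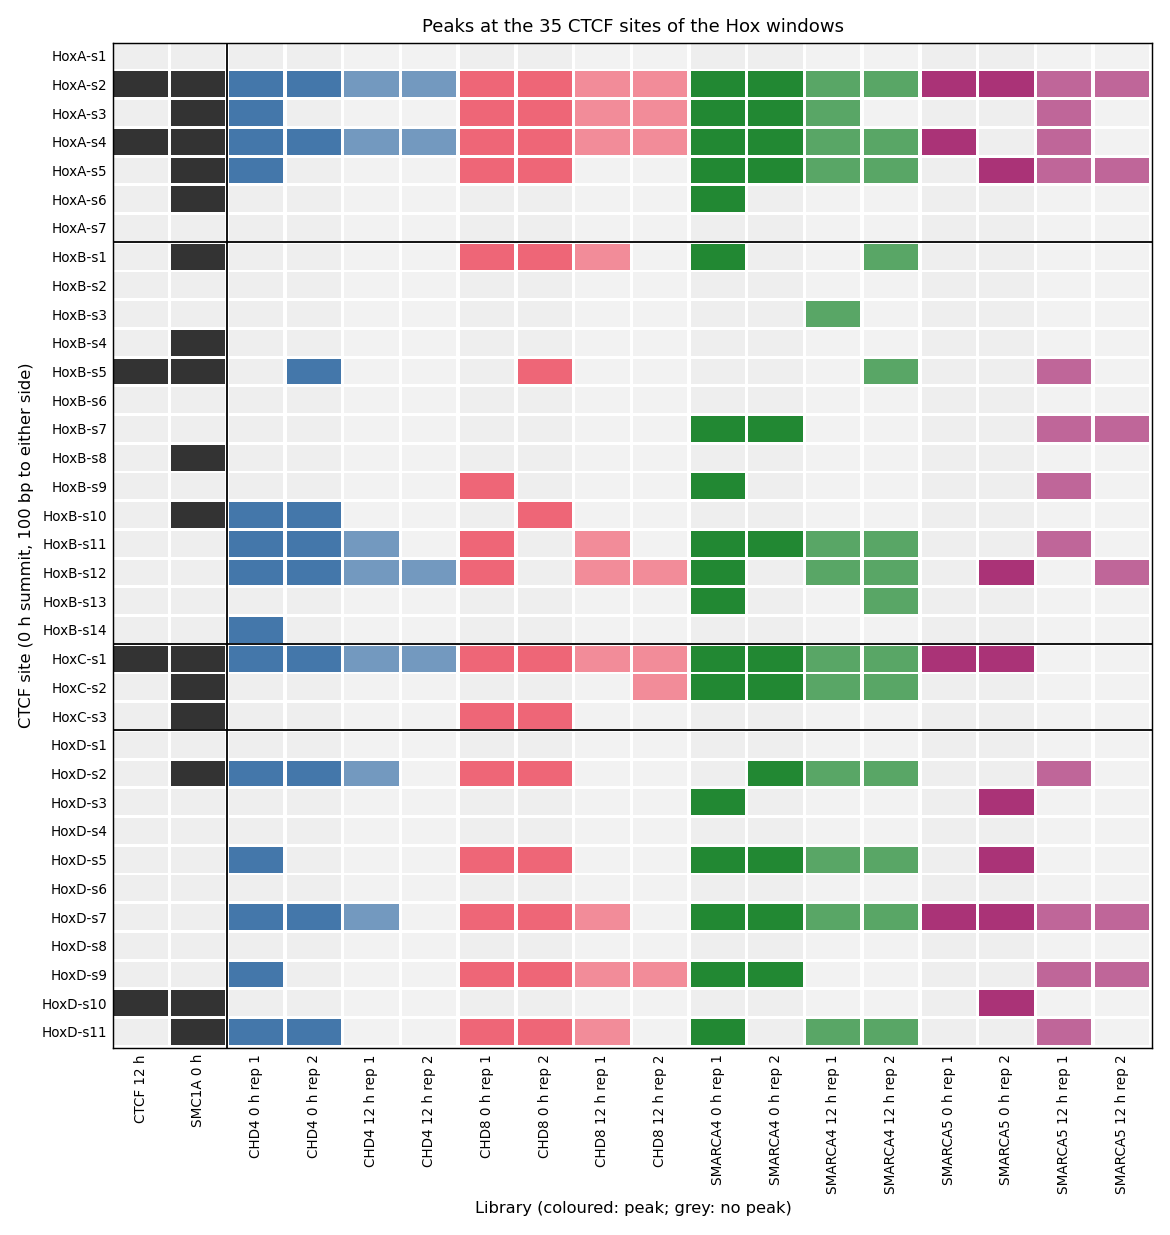
Presence of a peak (coloured) or none (grey) at each of the 35 Hox CTCF sites (rows, y axis) in each library (columns, x axis); dark columns on the left mark a CTCF peak at 12 h and a SMC1A peak at 0 h, and paler colours are 12 h libraries. HoxA-s2 is filled in all 16 remodeler libraries, and 10 rows are empty in all of them.

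An exact stratified permutation test over the 16 libraries was made for every CTCF site, with 0 h and 12 h labels exchanged within each remodeler (all relabellings, smallest two-sided p of 0.00154) and Benjamini-Hochberg adjustment over all 29934 sites. It called 0% of sites in either direction after adjustment. At an unadjusted p under 0.05, 1.71% of all sites were lower at 12 h (512 sites) and 0.0100% higher, and none of the 35 Hox sites was among them. The lowest Hox value was at HoxD-s5, between Hoxd13 and Hoxd12, with 6 of 8 libraries at 0 h and 2 of 8 at 12 h (exact permutation p of 0.0833, adjusted p of 1). With 29934 sites, at least 924 would need the smallest p for any to pass. HoxA-s2, with peaks in all 16 libraries, and the 10 Hox sites with none could not be called at any threshold.

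Sites with peaks in both 0 h libraries of a remodeler and in neither 12 h library were counted against the same share over all sites. CHD4 had 2 such Hox sites, HoxB-s10 and HoxD-s11 (5.71%, against 12.0%). CHD8 had 4, namely HoxA-s5, HoxC-s3, HoxD-s2 and HoxD-s5 (11.4%, exact 95% interval 3.20% to 26.7%, against 4.52%). SMARCA4 had 2, HoxB-s7 and HoxD-s9 (5.71%, against 2.21%), and SMARCA5 had 1, HoxC-s1 (2.86%, against 2.38%). The reverse pattern was seen for SMARCA5 at HoxB-s7 and HoxD-s9 (5.71%, against 0.658%) and at no Hox site for CHD4 (against 0.130%), CHD8 (0.200%) or SMARCA4 (1.02%). The genome-wide shares lie inside the exact intervals of the Hox shares in 4 of these 5 counts, and for the SMARCA5 reverse pattern the share of 0.658% lies just under the interval of 0.700% to 19.2%. None of the 4 CHD8 sites had a CTCF peak at 12 h, as was so for 30 of the 35 Hox sites. The sum over remodelers of sites seen at 0 h only was 9, and it was 4 at a −log10 q of at least 5 and 1 with summits.

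Sites that a remodeler occupied throughout, or never, were counted as well. CHD4 was in all 4 of its libraries at 4 of the 35 sites (11.4%, against 11.8% of all CTCF sites) and in none at 20 (57.1%, against 48.0%). CHD8 was in all 4 at 5 sites (14.3%, against 11.3%) and in none at 17 (48.6%, against 70.2%, above the exact 95% interval of 31.4% to 66.0%). SMARCA4 was in all 4 at 8 sites (22.9%, against 14.9%) and in none at 14 (40%, against 62.9%, above the interval of 23.9% to 57.9%). SMARCA5 was in all 4 at 2 sites (5.71%, against 4.34%) and in none at 18 (51.4%, against 71.1%, above the interval of 34.0% to 68.6%). CHD8, SMARCA4 and SMARCA5 were absent from a smaller share of these 35 sites than of all sites, and CHD4 was not. The intervals treat the sites as independent, though they are neighbours in 4 windows, so they are no test of a Hox trait. Position mattered within the windows. SMARCA4 was at 50.0% and then 44.2% of the 26 body sites, but at 22.2% of the 9 flank sites at both times.

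At Hox promoters the remodelers were listed at most genes at both times. A promoter is 1 kb to either side of any protein-coding transcript start. CHD4 was at 86.8% and 89.5% of the 38 promoters at 0 h and at 97.4% and 89.5% at 12 h. CHD8 was at 81.6% and 78.9%, then at 84.2% and 78.9%. SMARCA4 was at 97.4% and 73.7%, then at 84.2% and 97.4%, and SMARCA5 at 76.3% and 94.7%, then at 94.7% and 63.2%. The libraries of the 2 times overlapped or met in every remodeler. In SMARCA4 both time-first lists were the lower of their pair (73.7% and 84.2%), and in SMARCA5 both time-first lists were the higher (94.7% at each time), so the spread between replicates moved with the naming style, and its part was not tested.

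The Hox promoters were listed more often than other promoters. Over 21813 other genes the means at 0 h and 12 h were 65.5% and 62.9% for CHD4, 62% and 60.8% for CHD8, 62.2% and 64.7% for SMARCA4 and 50.3% and 52.9% for SMARCA5. In each of the 16 libraries the Hox share was the higher one. Of the Hox promoters, 17 had peaks in all 16 libraries (44.7%, exact 95% interval 28.6% to 61.7%), against 33.4% of all genes, and none had no peak at all, against 27.2% of all genes. Taken singly, CHD4 was in all 4 of its libraries at 28 Hox promoters (73.7%, exact 95% interval 56.9% to 86.6%, against 56.8% of all genes). CHD8 was so at 27 (71.1%, interval 54.1% to 84.6%, against 57.2%) and SMARCA4 at 26 (68.4%, interval 51.3% to 82.5%, against 55.9%). SMARCA5 was so at 23 (60.5%, interval 43.4% to 76.0%, against 37.4%). The share of all genes lies inside the interval for CHD8 and SMARCA4, just under it for CHD4, and below it for SMARCA5. No Hox promoter lacked CHD4, SMARCA4 or SMARCA5 in all 4 libraries, against 29.8%, 30.6% and 36.9% of all genes, and 4 lacked CHD8 (10.5%, against 34.5%).

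The test of each promoter over the 16 libraries called 0% of 21851 genes after adjustment. At an unadjusted p under 0.05 it found 0.0458% lower (10 genes) and 0.0320% higher (7 genes), with no Hox gene among them. The smallest exact permutation p of any promoter was 0.00463. The 17 Hox promoters with peaks in all 16 libraries could not be called, since exchanging labels leaves their counts unchanged. The lack of calls therefore does not show that Hox promoters stayed the same.

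The promoters with peaks in all 16 libraries were those of Hoxa2, Hoxa4, Hoxa5, Hoxa7, Hoxa9, Hoxa10 and Hoxa11 in HoxA, of Hoxb4, Hoxb7 and Hoxb9 in HoxB, of Hoxc4, Hoxc10, Hoxc11, Hoxc12 and Hoxc13 in HoxC, and of Hoxd3 and Hoxd8 in HoxD. Those with the fewest were Hoxa3 with 8 in HoxA, Hoxb3 with 4 in HoxB, Hoxc6 and Hoxc8 with 13 each in HoxC, and Hoxd12 with 8 in HoxD. HoxB had the sparsest promoters, with a median of 10.5 libraries against 16 in HoxA, 16 in HoxC and 15 in HoxD. Of its 10 genes, 6 (Hoxb1, Hoxb2, Hoxb3, Hoxb5, Hoxb6 and Hoxb8) had fewer than 12 libraries, beside 2 of 10 in HoxA, 0 of 9 in HoxC and 1 of 9 in HoxD. The 4 promoters without CHD8 in any library were Hoxb2, Hoxb3, Hoxb6 and Hoxd12, so 3 of them are HoxB genes.

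**Figure D4:**
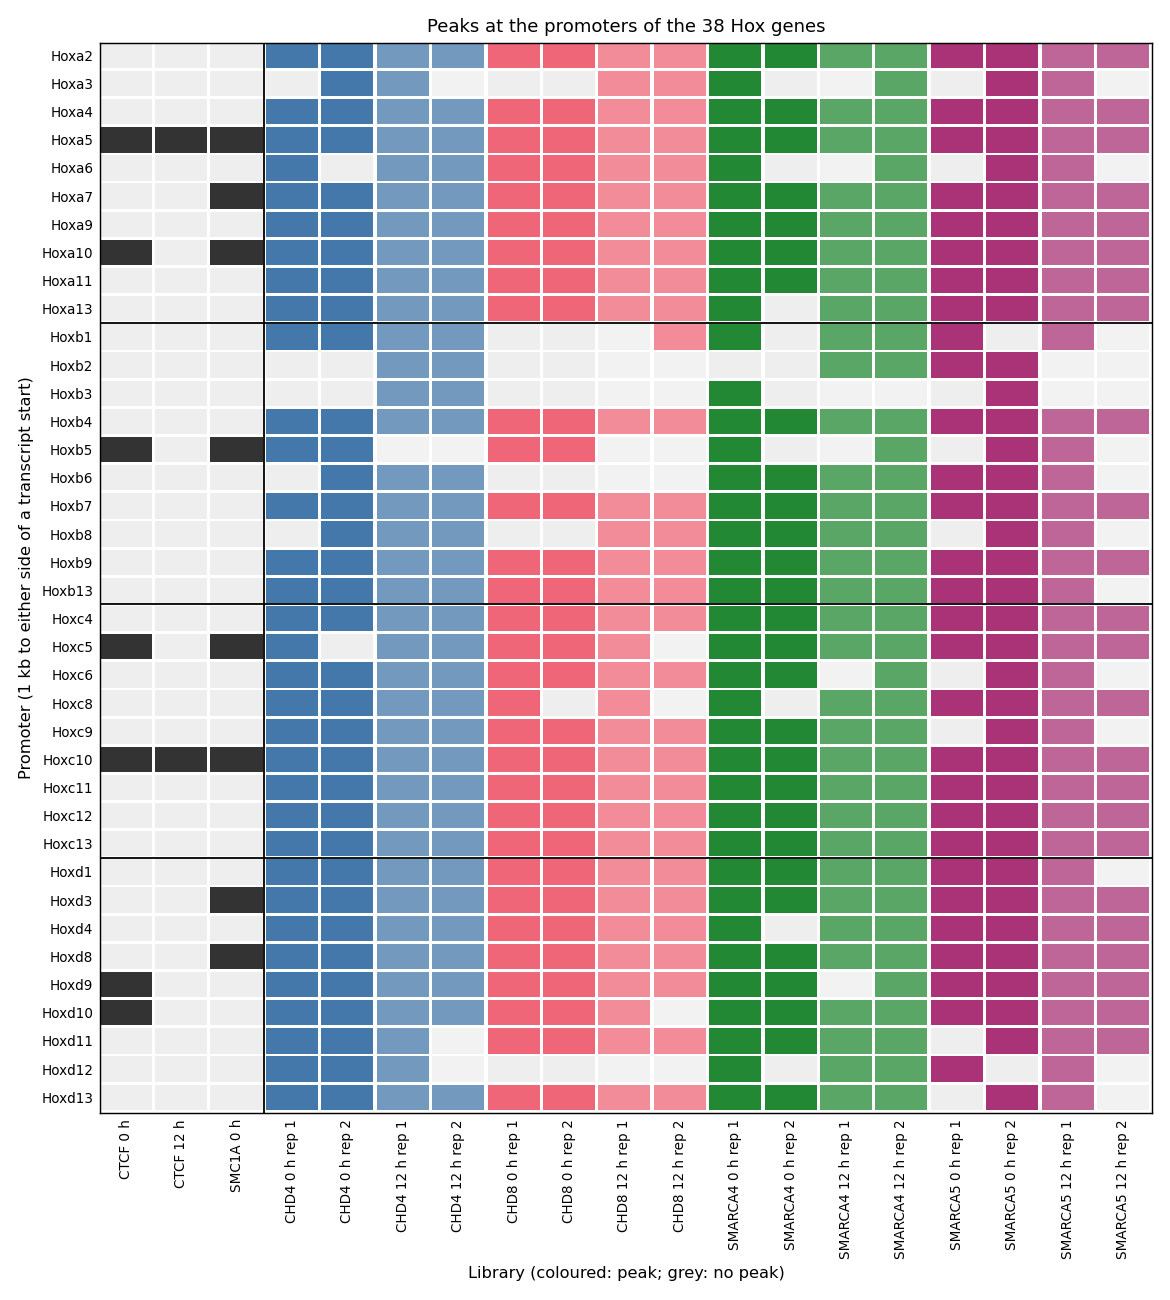
Presence of a peak (coloured) or none (grey) at the promoter of each of the 38 Hox genes (rows, y axis) in each library (columns, x axis); dark columns mark CTCF at 0 h and 12 h and SMC1A at 0 h, and paler colours are 12 h libraries. Most rows are filled, and the gaps gather at Hoxb1 to Hoxb3, Hoxb5, Hoxb6, Hoxa3 and Hoxd12.

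The choice of start site decided the count for a few genes. The start used for Hoxa3 lies 40.5 kb upstream of its coding start, between Hoxa6 and Hoxa7. Around the coding start of Hoxa3, 14 of 16 libraries had a peak in place of 8. The reverse held for Hoxd3, with 16 libraries over its annotated starts and 0 around its coding start, which is 4.39 kb from the nearest of them. Hoxb6 had 10 and 5, and Hoxb2 had 6 and 9. Peaks of neighbouring starts are shared in these compact clusters, so promoters are not independent of each other.

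Single promoters differed between the times in both directions. At Hoxb5 CHD4 was listed in both 0 h libraries (fold enrichments 3.72 and 5.20) and in neither 12 h library, and so was CHD8 (5.06 and 2.74). SMARCA4 and SMARCA5 kept 1 library per time at Hoxb5, which made 6 libraries at 0 h and 2 at 12 h (exact permutation p of 0.181, adjusted p of 1). Hoxb5 is the promoter beside HoxB-s10, the strongest HoxB CTCF site, and had both a CTCF and a SMC1A peak at 0 h and none at 12 h. At Hoxb2 CHD4 was listed in neither 0 h library and in both 12 h libraries (3.94 and 6.23), as was SMARCA4 (3.29 and 3.48), while SMARCA5 was listed at 0 h (4.00 and 4.34) and not at 12 h. At Hoxb3 CHD4 appeared at 12 h only (3.47 and 3.65), and CHD8 appeared at 12 h only at Hoxa3 and Hoxb8. At a −log10 q of at least 5, of these promoter patterns only CHD4 at Hoxb2 was still seen in both libraries of one time and neither of the other. The difference in libraries was then 0 for CHD4 at Hoxb5 and Hoxb3 and for SMARCA4 and SMARCA5 at Hoxb2, −1 for CHD8 at Hoxb5 and 1 for CHD8 at Hoxa3 and Hoxb8.

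These patterns were compared with their shares over all genes. Promoters with CHD4 in both 0 h and neither 12 h library were 1 of 38 Hox genes against 1.17% of all, and the reverse pattern 2 of 38 (5.26%, exact 95% interval 0.644% to 17.7%) against 0.320%. For CHD8 they were 1 of 38 against 0.760% and 2 of 38 (5.26%) against 0.238%. For SMARCA4 they were 0 of 38 against 0.412% and 1 of 38 against 1.01%, and for SMARCA5 1 of 38 against 0.659% and 0 of 38 against 1.61%. The shares over all genes for CHD4 and CHD8 at 12 h only lie below the interval of the 2 Hox genes, and the counts of 1 or 2 genes, with Hoxb2 and Hoxb5 in several of them, describe these genes.

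By position in the clusters, the 11 genes of paralog groups 1 to 4 had CHD4 and CHD8 more often at 12 h, with no overlap of libraries. CHD4 was at 72.7% and 81.8% of them at 0 h and at 100% and 90.9% at 12 h, and CHD8 at 63.6% in both 0 h libraries and at 72.7% and 81.8% at 12 h. The CHD4 difference came from Hoxb2 and Hoxb3 alone and the CHD8 difference from Hoxa3 and Hoxb1 alone. The other genes of these groups had equal numbers of CHD4 and CHD8 libraries at both times. SMARCA4 was at 90.9% and 54.5% and then at 81.8% and 90.9%, and SMARCA5 at 81.8% and 90.9% and then at 81.8% and 54.5%, a mean change of −18.2 points with overlapping libraries. The 11 genes of groups 5 to 8 had CHD4 at 81.8% in both 0 h libraries and at 90.9% in both 12 h libraries. A CHD4 rise without overlap of libraries was thus not particular to groups 1 to 4. CHD8 was at 81.8% and 72.7% of the genes of groups 5 to 8 and then at 81.8% and 63.6%. The 16 genes of groups 9 to 13 had CHD4 at 100% in both 0 h libraries and at 100% and 87.5% at 12 h, and CHD8 at 93.8% in both 0 h libraries and at 93.8% and 87.5% at 12 h. The CHD4 difference of +18.2 points in groups 1 to 4 was 0 with 500 bp to either side of the starts or with the gene's own end alone, and −4.55 at a −log10 q of at least 5, so its direction depended on the definition. The CHD8 difference of +13.6 points was +4.55 at that q and with lists cut to equal length. Over all 38 genes the CHD4 change of +5.26 points was −6.58 with 500 bp to either side.

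CTCF itself was listed at 7 of the 38 Hox promoters at 0 h (18.4%, against 15.1% of all genes), those of Hoxa5, Hoxa10, Hoxb5, Hoxc5, Hoxc10, Hoxd9 and Hoxd10, and at 12 h at 2 of them, Hoxa5 and Hoxc10 (5.26%, against 2.05%). SMC1A was listed at 8 (21.1%, against 12.1%), of which Hoxa7, Hoxd3 and Hoxd8 had no CTCF peak. Of the 7 promoters with CTCF at 0 h, 6 had 14 to 16 remodeler libraries, and the other was Hoxb5 with 8. Of all 38 Hox promoters, 27 had at least 14.

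Across whole cluster bodies, remodeler peaks covered several times the share they cover of the genome. SMARCA4 peaks covered 39.5% and 20.4% of the HoxA body at 0 h and 25.2% and 36.8% at 12 h, against 2.33% to 3.51% of the genome. HoxA had the highest mean cover of the 4 clusters for each remodeler at each time. CHD8 covered 20.1% and 16.2% of it, then 17.8% and 14.4%. In HoxB, the widest cluster, CHD8 covered 9.70% and 7.40%, then 9.48% and 5.81%. Libraries of the 2 times did not overlap in 2 of the 16 combinations of cluster and remodeler. SMARCA4 covered 25.6% and 13.8% of HoxC at 0 h and 26.6% and 32.9% at 12 h, and CHD8 covered 12.3% and 9.88% of HoxD at 0 h and 9.79% and 7.13% at 12 h. In both the nearest libraries of the 2 times differed by less than replicates of one time did. In CHD4 the replicate 2 lists with the narrow peaks covered less in every cluster than the replicate 1 lists of the same time.

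**Figure D5:**
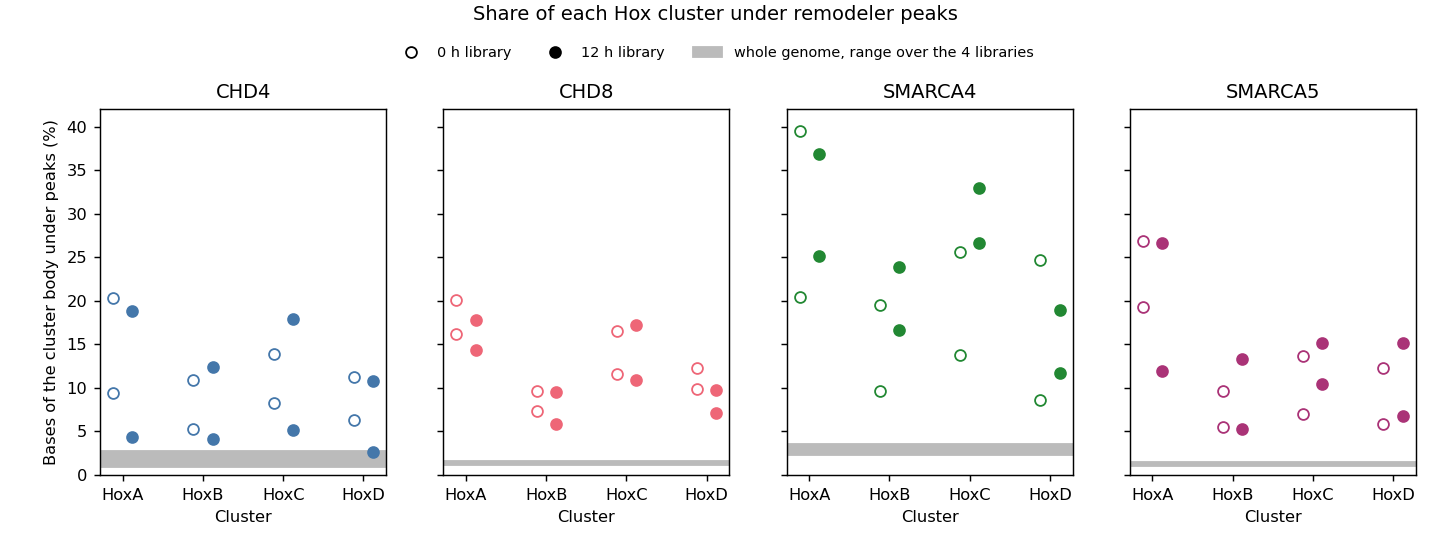
Share of the bases of each cluster body under remodeler peaks (y axis, %) by cluster (x axis) for each remodeler (panel); open points are 0 h libraries, filled points 12 h libraries, and the grey band is the range over the 4 libraries for the whole genome. The highest 0 h point of each panel is in HoxA, and all but 1 of the points, a CHD4 library in HoxD, lie above the band.

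Genes that work with Hox proteins or control the clusters were taken from a list of 28, made up of the PBX, MEIS and PKNOX cofactors of Hox proteins, the CDX and retinoic acid receptor genes that act upstream, Polycomb and trithorax genes, and the related Evx, Gbx and ParaHox genes. None passed the promoter test in either direction, after adjustment or at an unadjusted p under 0.05. A promoter with peaks in all 16 libraries cannot be called by that test, since exchanging labels leaves its counts unchanged. Of the 28, 18 had peaks in all 16 libraries (64.3%, against 33.4% of all genes), among them Ezh2, Eed and Suz12 of Polycomb repressive complex 2, Kmt2a, Meis1 and Rara. The lowest were Evx2, which lies in the HoxD window, with 3 libraries at 0 h and 2 at 12 h, Cdx4 with 5 and 4, and Cdx2 with 5 and 5. Of the 28, 4 had fewer libraries at 12 h, 3 had more and 21 had equal numbers, beside 6, 8 and 24 of the 38 Hox genes and 3085, 3568 and 15198 of all 21851 genes. The 3 non-Hox protein-coding genes with a start in the windows, 5730596B20Rik, Gm28308 and Evx2, had a median of 6 of 16 libraries.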

How the data were processed

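The 20 deposited peak lists analysed here hold 1 sample each, and 10 input samples were not analysed. Per the submitters' processing notes, Trim Galore, Bowtie2, MACS2 and deepTools were used, with the builds mm10 and hg38, in no stated order; versions and settings are not given in the sources used here. Per the deposited files' 10-column layout, column 7 is the fold enrichment ratio of a peak and columns 8 and 9 its −log10 p and −log10 q, all as the authors' peak caller gave them. No peak on the 21 main chromosomes ran past its end in GRCm38 (0 peaks). Genes came from GENCODE M21 basic. The motif model was learned from CTCF sites and the RefSeq GRCm38 sequence. Overlap means at least 1 bp. Shares of sites have exact Clopper-Pearson 95% intervals, which treat sites as independent. Libraries were the units of the exact permutation tests, which were checked on simulated occupancy. Tools were Python 3.11.15, numpy 2.4.6, pandas 2.3.3 and scipy 1.17.1. The genes named in full were all Hox genes, the 3 strongest CTCF sites per window and every site with a 12 h peak, and the promoters with most and fewest libraries per cluster. The Hox genes and lists were chosen with earlier results of these data known. Alternatives are given in the closing section.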

Additional observations from a re-analysis of the deposited data

Results flagged for a closer look

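At the 14 HoxB CTCF sites the changes of CHD4 and SMARCA5 between 0 h and 12 h had opposite signs with no overlap of libraries in either, and differed by −35.8 percentage points; this difference was not tested. At HoxB-s7 and at HoxD-s9, SMARCA4 was listed in both 0 h libraries and neither 12 h library and SMARCA5 the other way round, so that the changes in libraries with a peak differed by −4 at each site, also untested. At the Hoxb2 promoter the change of SMARCA5 differed by −4 libraries from that of CHD4 and by −4 from that of SMARCA4, untested as well. The SMARCA4 fold enrichments were 5.55 and 3.52 at HoxB-s7 and 4.5 and 3.08 at HoxD-s9, and the SMARCA5 values 3.11 and 2.78, and 2.78 and 3.26. At a −log10 q of at least 5 SMARCA5 changed by 0 libraries at both sites, SMARCA4 by −1 at both, and at Hoxb2 both changed by 0 while CHD4 changed by 2. With summits SMARCA4 changed by 0 at both sites, and SMARCA5 by 0 at HoxB-s7 and by 2 at HoxD-s9, while the Hoxb2 values did not move. For the HoxB sites, CHD4 and SMARCA5 changed by −3.57 and +3.57 points at that q. No group had enough libraries for a check of single outlying samples.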

How the results depend on the processing

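Of the settings tried, 218 were labelled as leaving a value the same, 56 as moving it, and 4 as turning the sign of a change larger than its spread. For shares and mean changes, the same meant within the counting or replicate spread of the main value, whatever its sign. For counts of calls and of lost and gained features it meant an equal or similar count, and for single features an equal one. The 218 include mean changes with libraries paired by replicate number, which equal the main values by construction. They also include the counts of adjusted calls, 0 in every setting, for which the smallest possible p left little room to differ. The sign of the change between times was opposite in 3 of 45 settings for Hox CTCF sites, all in SMARCA4, in 12 of 45 for Hox promoters, in every remodeler, and in 9 of 25 for the cover of cluster bodies. It was never opposite for CHD4 and CHD8 at CTCF sites in 11 and 10 settings. The CHD4 change at Hox promoters (+5.26 points) was −6.58 with 500 bp to either side, −5.26 with the gene end only and −2.63 around coding starts, and the CHD4 change at promoters of paralog groups 1 to 4 (+18.2) was −4.55 at a −log10 q of at least 5. At that q the CHD4 change was −10.0 points at Hox CTCF sites and 0 at Hox promoters, the CHD8 change at promoters (+1.32) −5.26, and the sums of lost and gained CTCF sites and of lost promoters 4, 0 and 1, from 9, 2 and 3. With summits, CHD8 changed by −11.4 and SMARCA4 by +7.14 points at Hox CTCF sites, and those sums were 1, 1 and 5. The CHD8 change at promoters was −2.63 with equal list lengths and −3.95 with the gene end only. In the upper 50% of CTCF sites, 68.4% of Hox sites held SMC1A, and the share over all such sites was not taken. Fewer peaks enter under the stricter settings; the cause of the other differences was not tested. Left out in turn, single libraries gave promoter changes of 1.32 to 9.21 points for CHD4, −1.32 to 3.95 for CHD8, −6.58 to 17.1 for SMARCA4 and −22.4 to 9.21 for SMARCA5.

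The replicate block pairs libraries of the same number. With 2 libraries per time its mean changes equal the main ones by construction. At Hox CTCF sites they were −18.6 points for CHD4 and −17.1 for CHD8. The paired differences there had SDs of 2.02 for CHD4, 4.04 for CHD8, 14.1 for SMARCA4 and 20.2 for SMARCA5. The pooled SDs of libraries within a time were 7.14, 4.52, 8.69 and 10.3 in that order. The block test gave 0 adjusted calls for sites and promoters. Libraries with the same number had deviations correlated at −0.147 to 0.226. The labels do not say what such libraries share, and the CHD4 lists of the same number were alike in peak width. With the SMARCA4 numbers crossed, 167 sites and 6 promoters had an unadjusted p under 0.05, as without crossing. Naming styles, crossed numbers, coding starts, cluster-level and body-cover alternatives were chosen after seeing the data. Depth is unknown, and a peak under the authors' threshold counts as absent.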
